A study of Drosophila melanogaster with 6 samples.

Results

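In m6A-CLIP of fly heads, 682 of 4156 regions that carried a peak in all 3 replicates had few CLIP reads for the input reads at the same place, and these low regions are described here. They were chosen by the ratio of CLIP to input reads, which had to lie at least 1 on the log2 scale below the median of the list in every replicate.

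N6-methyladenosine (m6A) is a methyl mark on adenosines inside messenger and non-coding RNA, and in flies it is set by the Mettl3 complex and read by the YTH proteins Ythdc1 and Ythdf. In m6A-CLIP, fragmented RNA is bound by an antibody against m6A, crosslinked to it by ultraviolet light and sequenced beside an input library of the same RNA that was not enriched. The CLIP reads at a place are therefore read against its input reads, and a place rich in input can carry many CLIP reads without being enriched.

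The study holds 3 CLIP and 3 input libraries from heads of Drosophila melanogaster, and each CLIP library with the input of the same number gave a single deposited peak list, called replicate 1, 2 or 3. All 6 libraries share the genotype w1118cs, mixed males and females, a standard diet and a temperature of 25 °C, and no animals of another genotype or treatment were compared. Each replicate was made from about 800 heads and 20 µg of poly(A)-selected RNA, so a replicate is a pool of animals. The labels name the cell type neurons, but the RNA came from whole heads. Of the markers searched, 9 of 10 for neurons, 7 of 7 for photoreceptors, 6 of 7 for muscle, 4 of 8 for fat body, 4 of 8 for glia and 2 of 4 for hemocytes had a peak in all 3 lists.

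A shared region was a run of 50 bp bins covered on the same strand by a peak in all 3 lists. There were 4197, of which 41 lay on ribosomal RNA genes and were left out. For the other 4156, the ratio was formed from the reads per 50 bp bin, as log2 of (CLIP + 1)/(input + 1), and taken relative to the median of all peaks of that list ("centred"). A region was kept when its centred ratio was −1 or lower in all 3 lists, and 682 were kept (16.4% of 4156), called low regions here. The single lists gave 1067 regions at or below −1 in replicate 1 (25.7%), 1483 in replicate 2 (35.7%) and 1108 in replicate 3 (26.7%). Since the ratio, and with it the CLIP reads, the input reads and the deposited p-values, chose the regions, these values are given as a description without a test. For comparison, 1247 shared regions lay at least 1 above the list median in all 3 lists and are called high regions.

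The low regions covered 105900 bp, 302 of them were a single bin, and the widest spanned 2000 bp. They rest on 514 distinct peaks in replicate 1, 575 in replicate 2 and 644 in replicate 3, so neighbouring regions often share a peak and its values. A block of 15 low regions lay beyond 23000000 bp on chromosome X, between X:23431901 and X:23537050, in a stretch with no annotated gene but with ribosomal RNA genes and pseudogenes in the same part of the arm. Replicates 2 and 3 covered this block with only 3 peaks each, against 15 in replicate 1, and its input reads per bin ran from 148 to 101681 in replicate 1, from 19143 to 48611 in replicate 2 and from 20725 to 52115 in replicate 3. CLIP reads per bin ran from 16 to 20987 in replicate 1, from 27304 to 47256 in replicate 2 and from 7755 to 13732 in replicate 3. The very low means of this block come from replicate 1, where the lowest centred ratio was −9.90; that region had −1.07 and −1.00303 in replicates 2 and 3. Without it 667 low regions remain. The lists hold no library totals, so the sequencing depth behind these values is unknown.

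As described by the values that chose them, the low regions stood apart in input more than in CLIP. Their median CLIP reads per bin were 23.9, 49 and 12 in replicates 1, 2 and 3, against 19.2, 46 and 11 in the 3474 other shared regions. Their median input reads per bin were 61.4, 57.7 and 55, against 8.08, 9.95 and 8. The median CLIP level was thus 1.13 ± 0.10 times that of the others (SD, n = 3 lists), while the median input level was 6.76 ± 0.90 times higher. No low region had an input level below the median of the other regions in any list, the lowest being 15.5, 20.4 and 20.7. The rule fixed this outcome in advance. Even at the smallest CLIP level of a list, a centred ratio of −1 needs an input above that median. Input at or above the median of the low regions was also found in 177, 242 and 221 of the other regions. The smallest CLIP level in a list was 7, 25 and 7 reads per bin. Levels within a factor of 2 of that floor made up 13.2%, 52.9% and 61.7% of the low regions and 22.6%, 57.7% and 69.7% of the others.

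In absolute terms, CLIP reads were fewer than input reads in all 682 low regions in replicates 1 and 3 and in 423 (62.0%) in replicate 2. Among the other regions this held for 36.0%, 10.02% and 42.1%. The list medians were 0.17, 1.58 and −0.42 on the log2 scale before centring, and the reads were not scaled to library size. The median centred ratio of the low regions was −1.46, −1.69 and −1.54, and that of the others 0.96, 0.54 and 0.87. Most low regions sat near the limit. Only 32 were at or below −2 in every replicate, 11 at or below −3 and 5 at or below −4. The SD of the centred ratio over the 3 lists had a median of 0.29 in the low regions and 0.46 in the others. Across the low regions, Spearman correlations of the centred ratio were 0.10 between replicates 1 and 2, 0.31 between 1 and 3 and 0.44 between 2 and 3. The rule cut these same values at −1 in every list, so neither the SD nor the correlations measure stability apart from the choice. Regions are not replicates, and shared peaks give several of them the same value.

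**Figure D1:**
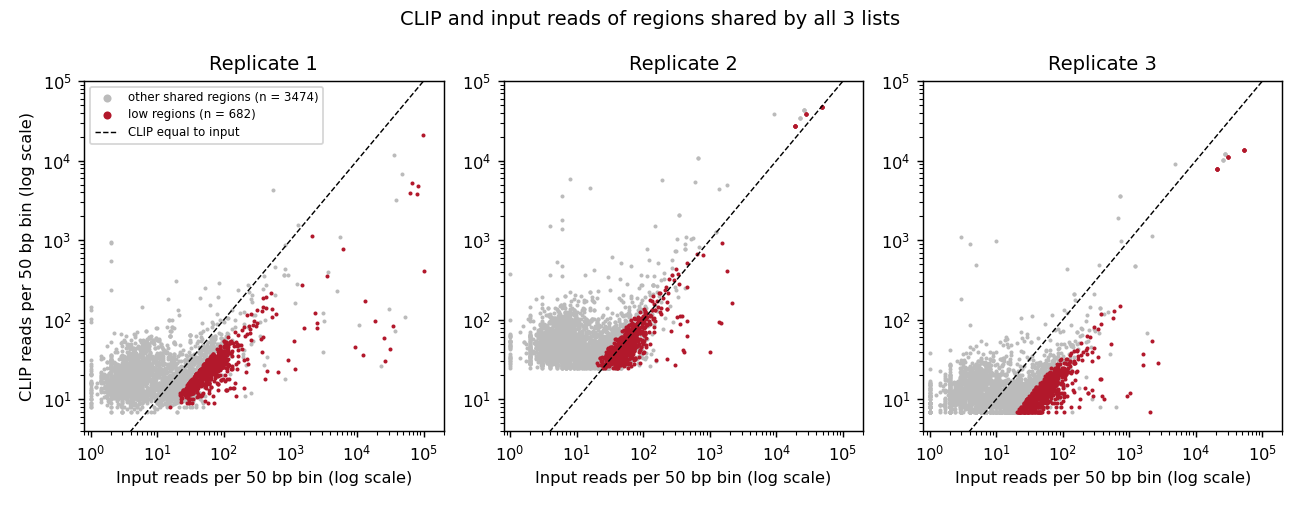
CLIP reads per bin (y axis, log scale) against input reads per bin (x axis, log scale) for each shared region in replicates 1, 2 and 3, with the 682 low regions in red and the 3474 others in grey. The low regions form the right edge of the cloud, at input medians of 61.4, 57.7 and 55 reads per bin, and the block on chromosome X lies at the highest input of replicates 2 and 3.

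The limit itself cut through a continuous range. Just inside it lay a region of eEF5, the translation factor that carries hypusine, whose centred ratios over the 3 lists were −1.0004, −1.67 and −1.39. Just outside lay regions of norpA, the phospholipase C of phototransduction, at −1.37, −1.27 and −0.999998, and of CG15201 at −1.68, −0.9994 and −1.21.

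By class of gene, 553 low regions had their midpoint in the span of 1 protein-coding gene with no small RNA gene, which is 15.4% of the 3583 shared regions of that class. Small structured RNA genes held 58 low regions, which is 50% of their 116 shared regions, and made up 8.50% of the low regions against 1.67% of the others. All 6 shared regions on microRNA genes and all 4 on small nuclear RNA genes were low, as were 47 of 90 (52.2%) on small nucleolar RNA genes. None of the 14 regions on transfer RNA genes was low. Long non-coding and antisense RNA genes held 17 of 77 (22.1%), and 20 of 51 shared regions without any gene were low, 15 of them in the block on X. These shares are read beside the 16.4% of all shared regions, and with no test, since the positions are the same in each list.

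MicroRNAs are cut from the stem of a hairpin in a longer primary transcript. A peak on such a gene does not tell the precursor, its host transcript and the mature microRNA apart. The microRNA regions were the lowest class, with a median over regions of −4.22 for the mean centred ratio, against −1.57 for those in 1 protein-coding gene. The region on mir-276a (3L:10365251-10365300, plus strand, in lncRNA:CR46006) had 79, 93 and 37 CLIP reads per bin in replicates 1, 2 and 3 over 1620, 1384 and 1584 input reads, and its mean centred ratio was −4.98 ± 0.48 (SD, n = 3). On mir-210, a microRNA needed for photoreceptor upkeep in flies, 31, 40 and 11 CLIP reads lay over 927, 411 and 386 input reads (X:18128251-18128300, mean −4.85 ± 0.22). Input was far above the median of the other shared regions in every replicate at both, while CLIP reads were at or above theirs except at mir-210 in replicate 2.

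The neighbours mir-34 and mir-277 are processed from the same host, lncRNA:CR43459. At mir-34, which is linked to ageing and brain upkeep in flies, CLIP reads per bin were 24, 42 and 18 and input reads 1153, 397 and 375 (3R:10100951-10101000, mean −4.79 ± 0.90). At mir-277, a regulator of branched-chain amino acid breakdown, they were 60, 88 and 50 over 386, 357 and 525 (3R:10100051-10100100, mean −3.13 ± 0.41). At mir-34 replicate 1 stood apart, with the highest input and the lowest ratio, whereas the replicates lay closer together at mir-277.

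At mir-8, a microRNA of the miR-200 family that acts on insulin signalling in the fat body, CLIP reads were 40, 72 and 11 and input reads 373, 261 and 281 (mean −3.64 ± 0.43). The region on mir-1000, a regulator of the vesicular glutamate transporter inside the gene msi, had 28, 31 and 8 CLIP reads over 227, 156 and 174 input reads (mean −3.63 ± 0.42). A further region of lncRNA:CR43651, which overlaps the gene of mir-14 although its midpoint lies beyond it, had 80, 90 and 27 over 2503, 1453 and 1616 and was the second lowest of all 682 (mean −5.38 ± 0.24). mir-14 is known for limiting cell death and for its role in insulin-producing cells. With it, 7 microRNA genes carried a low region, and no ratio at any of the 7 was above −2.84 in any replicate.

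Peaks on microRNA genes outside every shared region were not used in the choice. There were 12 in replicate 1, all below the list median, 9 of them at or below −1, with a median centred ratio of −2.18. Replicate 2 had 2 such peaks and replicate 3 had 3, and these too were all below the list median (medians −1.83 and −3.75). Small nucleolar RNA genes had 41, 32 and 36 such peaks with medians of −1.63, −1.39 and −1.55. Transfer RNA genes had only 2 in replicate 1 but 183 and 180 in replicates 2 and 3, with medians of −1.31, −0.33 and −0.54. Of these, 1, 65 and 70 were at or below −1. Small nuclear RNA genes had 2, 23 and 23 such peaks, with 2, 12 and 9 at or below −1. Their medians were −1.57, −1.47 and −0.77. For comparison, 13.2%, 19.5% and 21.6% of outside peaks in single protein-coding genes without a low region were at or below −1. In genes with a low region it was 45.7%, 57.1% and 44.2%.

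Small nucleolar RNAs guide chemical changes on ribosomal RNA and mostly sit in introns of host genes. Of the 47 low regions on them, 30 lay in a protein-coding gene span, 15 of these in a ribosomal protein gene, and 13 in the non-coding Uhg host genes, whose spliced transcripts serve as snoRNA carriers. The lowest was snoRNA:Me28S-A982a in Uhg4, with 13, 34 and 11 CLIP reads per bin over 112, 85 and 116 input reads (mean −2.98 ± 0.18). At snoRNA:U14:30Ea in Uhg2 the CLIP reads were 18, 239 and 44 and the input reads 412, 209 and 299. Its centred ratio ran from −4.61 in replicate 1 to −1.39 in replicate 2, a spread wider than most. The host Uhg1 held 13 shared regions, of which 7 were low. Among small nuclear RNAs, the U4 gene snRNA:U4:39B, a spliceosome component, had 108, 370 and 117 CLIP reads over 525, 270 and 380 input reads (mean −1.62 ± 0.72), and 7SK, which holds the elongation factor P-TEFb inactive, had 138, 372 and 77.6 over 522, 328 and 337 (snRNA:7SKa, mean −1.72 ± 0.34).

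Among long non-coding RNAs, lncRNA:CR42862 held 12 low regions with means from −1.24 to −1.49, many of them under the same peaks of replicates 1 and 2. Both lncRNA:roX1, the dosage compensation RNA of males, and lncRNA:Hsromega, the heat shock RNA that organises omega speckles, held 2 low regions each.

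The lowest region of all lay in CG6813 (3R:11626051-11626100, minus strand). It had 92, 40 and 12 CLIP reads per bin over 2552, 990 and 1025 input reads in replicates 1, 2 and 3 (mean −5.67 ± 0.64). Ziz, a guanine nucleotide exchange factor of the DOCK family, had 54, 161 and 29 over 1146, 2133 and 2705 (2L:7484701-7484750, mean −5.31 ± 0.76). Both were single bins whose input was far above that of a typical low region.

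The region of neur, the E3 ubiquitin ligase of Notch signalling, had 359, 405 and 7 CLIP reads over 3543, 1798 and 2022 input reads. Its place near the bottom rests on replicate 3, where the centred ratio was −7.57 against −3.47 and −3.73 in the others (mean −4.92 ± 2.29). In spri, a relative of the vertebrate RIN proteins, 123, 98 and 10 CLIP reads lay over 2350, 457 and 411 input reads (mean −4.34 ± 0.51). Ugt50B3, a UDP-glycosyltransferase, combined high CLIP with higher input, at 784, 917 and 54 over 6096, 1517 and 2191 (mean −3.45 ± 1.32). Drsl5, a Drosomycin-like antifungal peptide, and Pzl, a Piezo-like channel, were much lower in replicates 2 and 3 (−5.02 and −3.80 for Drsl5, −4.38 and −3.45 for Pzl) than in replicate 1 (−1.52 and −1.40). No small RNA gene was annotated within 200 bp of CG6813, Ziz, neur or spri.

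**Figure D2:**
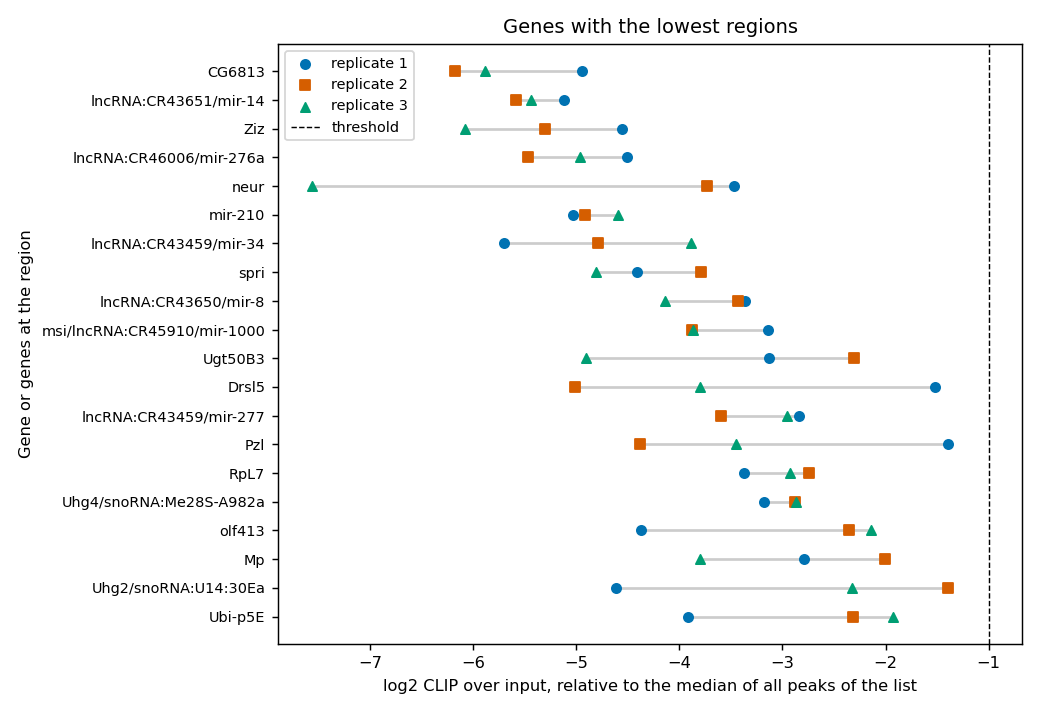
Centred log2 ratio of CLIP over input (x axis) of the lowest region of each of the 20 genes with the lowest mean, with 1 point per replicate and the limit of −1 as a dashed line. Replicates lie close together at mir-210 and at mir-14, and far apart at neur (−3.47 to −7.57), Drsl5 and Pzl.

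Genes of the protein synthesis machinery, of energy metabolism and of photoreceptors, fat body and muscle held many of the low regions. In all, 586 low regions could be given to a single protein-coding gene and fell on 250 genes, out of 1463 genes with a shared region. Genes named RpL or RpS, which encode ribosomal proteins, held 162 of these regions (27.6%). Of their 251 shared regions, 64.5% were low, against 16.4% of all shared regions, and 69 of the 79 such genes with a shared region held a low region. The large and the small subunit had like shares, with 97 of 149 (65.1%) and 65 of 102 (63.7%). Their low regions had median CLIP reads of 30.6, 64.5 and 17 for RpL genes and 30.1, 68.3 and 15.2 for RpS genes, and median input reads of 89.6, 71.0 and 75 and of 88.1, 69.2 and 68.7.

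The lowest was in RpL7 (2L:10201101-10201150), with 14, 33 and 7 CLIP reads per bin over 137, 75 and 80 input reads (mean −3.01 ± 0.32). RpL28 had 35, 70 and 16 over 166, 144 and 140 (mean −2.55 ± 0.14), and RpS9 had 26.8, 54.5 and 10.8 over 120, 101 and 105 (mean −2.51 ± 0.24). At RpL7, RpL28 and RpS9 the 3 replicates lay close together, RpL7 having its highest input in replicate 1. RpL37-1 had 38, 71 and 7 over 129, 121 and 105 (mean −2.52 ± 0.72). Its centred ratio ran from −1.91 in replicate 1 to −3.31 in replicate 3. In RpL4 all 7 shared regions were low.

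Translation factors held low regions in 8 of 11 genes with a shared region and in 28 of 51 regions (54.9%). eEF2, which moves the ribosome along the message, had all 5 of its regions low, at medians of 37.5, 80.3 and 16.2 CLIP reads over 108, 82.8 and 80.1 input reads. The lowest of the list was eEF1gamma at 9.50, 29 and 10 over 52.6, 50.0 and 47.0 (mean −2.19 ± 0.43). pAbp, the poly(A)-binding protein, had 7 of 13 regions low.

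Energy genes followed. The nuclear-encoded respiratory chain and ATP synthase list held 22 low of 54 shared regions (40.7%) in 10 of 14 genes, the lowest in ATPsynbeta, the catalytic subunit, with 23.5, 31 and 11 CLIP reads over 67.3, 71.4 and 84.0 input reads (mean −2.27 ± 0.57). Glycolysis held 21 of 43 (48.8%) in 5 of 9 genes, with all 6 regions low in Gapdh2 (lowest 25.6, 27.5 and 9 over 57.4, 73.3 and 48.1). Mpcp2, the mitochondrial phosphate carrier, had 7 of 7. Replicate 2 gave the lowest ratio of the 3 in ATPsynbeta (−2.76) and in Gapdh2 (−2.97), and replicate 1 the highest (−1.65 and −1.30).

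Genes of specialised head cells were also among them. In these pools, the number of cells of a type and the RNA per cell cannot be told apart, and a low ratio of CLIP to input measures neither. Phototransduction genes held 54 low of 161 shared regions (33.5%) in 12 of 16 genes. ninaE, which encodes the main rhodopsin, had 1 low region, with 220, 673 and 105 CLIP reads over 519, 652 and 565 input reads (mean −1.65 ± 0.31), the highest rank of CLIP reads of any gene with a low region. ninaC, a myosin III of the photoreceptor, had 10 of 17 regions low, the lowest with 30.7, 46.2 and 10.5 over 69.6, 80.7 and 67.8 (mean −1.96 ± 0.55). Arr1, an arrestin that shuts off rhodopsin, had 76.1, 141 and 22.4 over 244, 184 and 139 in a region of 800 bp (mean −1.99 ± 0.16). The channel gene trpl had 8 of 22 low, and chp, the photoreceptor adhesion protein chaoptin, 8 of 20.

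Fat body genes held 37 low of 72 shared regions (51.4%) in 6 of 7 genes. Most came from apolpp, the precursor of the lipid carrier lipophorin, which had 27 low regions of 45, more than any other gene. They rest on only 4 peaks in replicate 1, 13 in replicate 2 and 27 in replicate 3. The lowest had 19.9, 47.8 and 7 CLIP reads per bin over 42.7, 39.3 and 49 input reads (mean −1.59 ± 0.55). apolpp also set the share of chromosome 4, where 33 of 87 shared regions were low (37.9%), against 14.6% to 19.0% on the other arms. Outside apolpp it was 6 of 42 (14.3%). The yolk protein genes, which are expressed in the female fat body, held low regions too. Both shared regions of Yp1 and both of Yp2 were low, as were 2 of 3 in Yp3. A region of 1300 bp in Yp1 had 128, 323 and 62.0 CLIP reads over 381, 241 and 234 input reads (mean −1.46 ± 0.28).

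Muscle genes held 23 of 73 (31.5%) in 5 of 12 genes, 17 of them in Mhc, the muscle myosin heavy chain, whose lowest region had 15, 45 and 9 over 53.1, 110 and 56.8 (mean −2.30 ± 0.49). Actin and tubulin genes held 9 of 22 (40.9%), with Act5C, a cytoplasmic actin, at 16.1, 47.9 and 16.8 over 60.4, 81.7 and 81.0. Heat shock chaperones held 7 of 17 (41.2%), including all 6 regions of Hsc70-4. Ion pumps held 17 of 84 (20.2%), 9 of them in Atpalpha, the catalytic subunit of the sodium pump. Obp56d, an odorant-binding protein, held the only low region of 11 in its list (mean −1.66). Obp56e, which is not on that list, held 1 low region of 3 (mean −1.95).

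By contrast, the list of 17 neuronal genes held 1 low region of 49 (2.04%), although 13 of the 17 had a shared region. It lay in nSyb, the synaptic vesicle protein synaptobrevin, and was close to the limit, with 11.8, 33.2 and 8 CLIP reads over 24.7, 22.6 and 29.0 input reads (mean −1.18 ± 0.14). The list is a selection, and neuronal genes outside it also held low regions, with 4 of 8 shared regions in Rbp9 and 1 of 11 in cpx. Whether the input of the listed genes was high enough to reach the limit was not tested. Glial genes held 1 of 26, in nrv2. The insulin to foxo list held 1 of 20, in Thor, the translation inhibitor 4E-BP, with 11.6, 25 and 9 over 30.4, 25.3 and 30.5 (mean −1.44 ± 0.18). Neither the 3 shared regions of m6A writer and reader genes nor the 3 of hemocyte genes were low. The median mean centred ratio over the shared regions of a list was 0.80 for neuronal genes and 1.55 for the insulin to foxo list, and −1.49 for ribosomal protein genes.

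**Figure D3:**
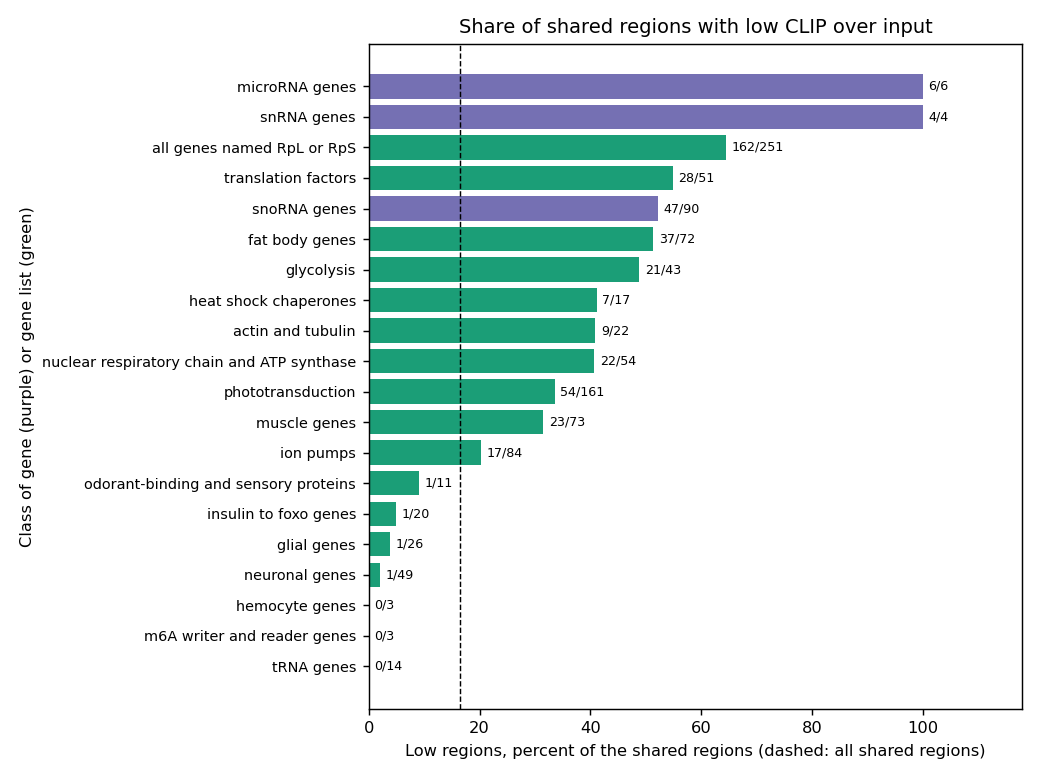
Percent of the shared regions that were low (x axis) in each class of small RNA gene (purple) and each gene list (green), with the number of low and of shared regions beside each bar and the 16.4% of all shared regions as a dashed line. Ribosomal protein genes reached 64.5%, and the listed neuronal genes 2.04%.

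Along the gene, few low regions lay at the beginning. Position was measured on the gene span, introns included, and started at the end that the strand of the peak makes the 5′ end. Only 10.6% of the 586 low regions lay in the first 20% of the span, against 47.4% of the 3064 other regions and 76.7% of the 1144 high regions. The next 4 parts of equal length held 16.7%, 23.5%, 27.5% and 21.7% of the low regions. The genes differ in length, with a median span of 2791 bp over low regions and 14082 bp over the others. Restricted to spans of at least 2000 bp, the shares in the first 20% were 8.53% and 51.0%, and without RpL and RpS genes 11.3% and 48.4%.

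Much of this contrast was between genes. In the 191 genes with both a low and another region, 9.19% of the low regions and 15.6% of the others lay in the first 20%, and 23.2% and 40.3% in the last 20%. The mean position of the low regions was nearer the gene's end in 96 of these 191. Peaks outside the shared regions, which the rule did not use, were split in the same way: of those at or below −1 of the list median, 11.9%, 14.5% and 17.2% lay in the first 20%, against 28.1%, 39.3% and 26.6% of the others. The difference was lower in 3 of 3 lists, with a mean of −16.8 ± 7.8 percentage points (exact sign-flip test over lists, two-sided, p = 0.25, the smallest that 3 lists allow).

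**Figure D4:**
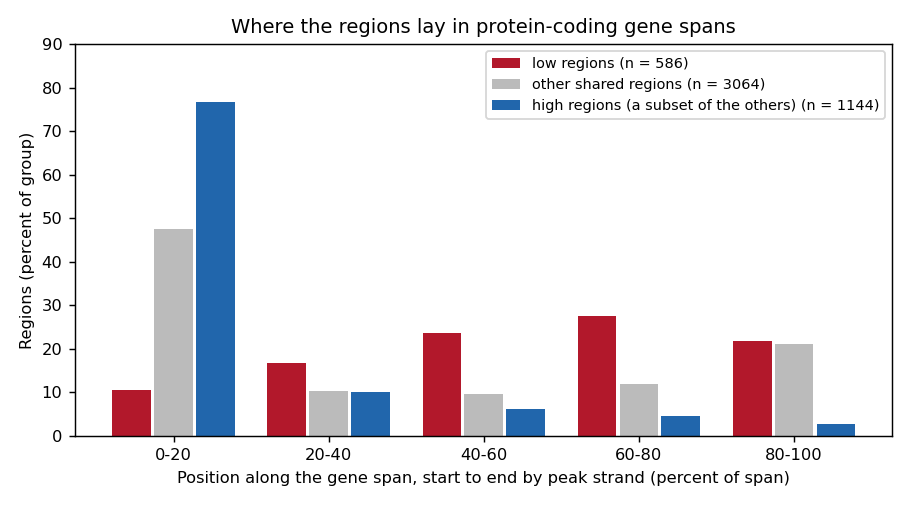
Percent of low regions (red), other shared regions (grey) and high regions (blue, a subset of the others) in 5 equal parts of the span of their protein-coding gene, from the 5′ end to the 3′ end by the strand of the peak. The first part holds 10.6% of the low, 47.4% of the other and 76.7% of the high regions.

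Other regions of the same genes were also on the low side. In 59 of the 250 genes every shared region was low. Only 14 of the 250 (5.6%) also held a high region, against 57.5% of the 1213 other genes with a shared region. This contrast is partly set by the rule, since the same ratio defines both kinds and 26 of the 250 genes have a single shared region, which is low. Of the 224 with more, 6.25% held a high region. The 675 regions of these genes that were not low had medians of −0.79, −1.12 and −0.77, against 1.54, 1.10 and 1.34 in the 2389 regions of other genes. Their input medians were 33.8, 35.4 and 28.8 reads per bin, against 5.14, 7 and 5.48. Peaks that also cover a low region were not taken out here. Part of these values can therefore be those that chose the low regions.

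Peaks that overlapped no shared region took no part in the choice of low regions, although they come from the same libraries and genes. In the genes with a low region there were 615, 394 and 251 such peaks, and their median centred ratio was −0.89, −1.19 and −0.91. In all other genes there were 9295, 2387 and 1742, with medians of 0.00, 0.36 and 0.09. The difference was −1.15 ± 0.36 (SD, n = 3 lists) and lower in 3 of 3 lists, which in the exact sign-flip test, two-sided, gives p = 0.25, the smallest possible, so the design cannot reach 0.05. Again the input differed, at medians of 18.1, 24.9 and 22.0 reads per bin against 8, 8 and 12, and the CLIP levels hardly did, at 10, 31 and 8 against 9, 31.7 and 8.

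**Figure D5:**
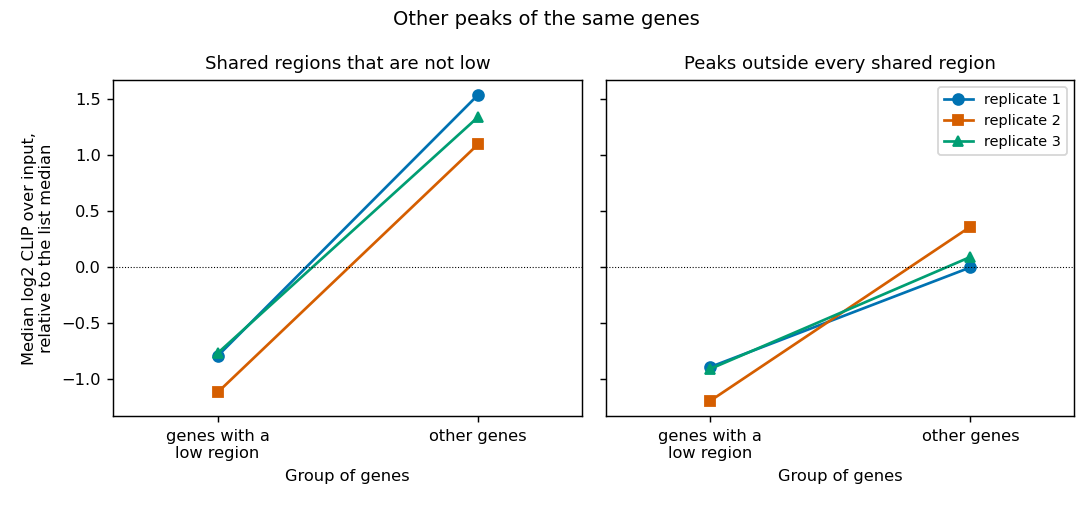
Median centred log2 ratio (y axis) in genes with a low region and in other genes, for shared regions that were not low (left panel) and for peaks outside every shared region (right panel), with 1 line per replicate. All 3 lines rise in both panels, in the right one from between −1.19 and −0.89 to between 0.00 and 0.36. In the left panel, peaks that also cover a low region were not taken out.

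In the 14 genes with both kinds, low and high regions could lie close together. In 11 of the 12 where both are on the same strand, the highest region lay nearer the 5′ end than the lowest, Mp, a collagen XV/XVIII relative, being the exception. The channel gene trp is an example, chosen after its values were seen. Its lowest region had 22.7, 48.7 and 11.2 CLIP reads per bin over 78.0, 58.9 and 59.3 input reads, and a region 2900 bp upstream had 252, 512 and 111 over 51.4, 45.9 and 34.7. Its input reads were higher at the low region in every replicate, but differed far less between the 2 places than its CLIP reads. In Oda, the ornithine decarboxylase antizyme, the 2 lay 400 bp apart: the low one had 23.2, 81.1 and 12.4 over 63.4, 73.3 and 67.7, and the high one 289, 470 and 114 over 85, 66.1 and 69.1. In nrv3, a beta subunit of the sodium pump, 19, 41.5 and 10 over 64.3, 62.7 and 47.6 stood 6450 bp from 306, 620 and 105 over 18.9, 34.1 and 23.4. Over the 14 genes, the high region had more CLIP reads than the low one in every replicate in 9 and fewer in every replicate in 2, Mp and Ziz, and it had less input in every replicate in 13, Oda being the exception. The other 3 genes, Atpalpha, kis and msi, had more CLIP reads at the high region in replicates 2 and 3 only.

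The peaks over low regions were wider. Their median width was 250, 150 and 100 bp in replicates 1, 2 and 3, against 200, 100 and 50 bp for the other shared regions, a difference of 50 bp in each list (exact sign-flip test, two-sided, p = 0.25, the smallest possible). With peaks within 50 bp merged first, the mean difference was 200 bp. Width is not part of the rule, but the input of a peak of several bins is a geometric mean, which is never above the arithmetic mean and so moves the ratio of wide peaks upward. Among the 373 shared regions covered by single-bin peaks in all 3 lists, where this does not apply, 59 were low (15.8%), close to the share of all regions.

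When the rule was applied to 2 lists and read in the list left out, the outcome depended on the list. The 993 regions chosen without replicate 1 were at or below −1 there in 68.7% of cases, the 738 chosen without replicate 2 in 92.4%, and the 862 chosen without replicate 3 in 79.1% (mean 80.1 ± 11.9%, n = 3). The regions found again are the same 682 each time, so the 3 shares differ only by how many regions the other 2 lists chose. The shares over all shared regions were 25.7%, 35.7% and 26.7%. In the list left out, 96.6%, 99.6% and 98.6% lay below its median, and 4, 0 and 0 regions lay at least 1 above it. CLIP and input enter each ratio together, so this shows how far the low ratio recurred and does not separate CLIP from input.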

How the data were processed

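The 6 libraries were sequenced by the authors as read pairs of 151 bp. Per the submitters' processing notes, STAR 2.7.5a and the builds dm6 and BDGP6 were used. The peak caller and its thresholds are not given in the sources used here. Each of the 3 deposited lists has no header, and the replicates were not pooled. The signal that the authors deposited was read, from its values, as CLIP reads per 50 bp bin, averaged over the bins of a peak and not scaled to library size. Input reads were deposited as a natural log, likewise averaged over bins, and whether 1 was added first is not known. The labels tie each library to a list but name no column. Which column is CLIP was therefore inferred from how the lists are called and from the values in them. The deposited p-value was used for 1 alternative only.

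Ratios used a pseudocount of 1. Gene spans came from the RefSeq table of Release 6 plus ISO1 MT, which gives no strand or exons, and regions were given to genes by their midpoint. No sequence is printed, since no genome was used here. The members and lists were chosen with earlier results of these data known. Genes named are the 20 with the lowest mean ratio, the 6 with most low regions, the 6 with the highest CLIP rank, regions outside protein-coding genes, up to 4 per list and 3 on each side of the limit; others were named after their values were seen. CLIP and input are paired by the list that both labels name. The labels do not say whether replicates were separate cohorts, so errors over lists may be technical. Differences were tested by exact sign-flip over lists. Python 3.11.15 with numpy 2.4.6, pandas 2.3.3 and scipy 1.17.1 was used, and the region finding and tests were run on simulated data first. Shared regions on ribosomal RNA genes and pseudogenes were left out.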

Additional observations from a re-analysis of the deposited data

How the results depend on the processing

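Of 46 alternatives, none turned a direction, but counts and shares have no direction to turn. Only the differences of the outside peaks and of the widths could have turned. With 1 list left out, or unpaired, these could not turn either, since all 3 lists had the same sign. In 38 a count stayed within 1.5 times, an untested value within its spread, or a tested value on the same side of the threshold. For the tested values this side was fixed by the design. The smallest sign-flip p with 3 lists is 0.25, and the smallest unpaired permutation p is 0.1. Their place among the 38 therefore does not measure stability. Of the tested values, 1 moved in size: the width difference was 200 bp in place of 50 bp when peaks within 50 bp were merged. The number of low regions, 682, was 1310 with a limit of 0.5 below the list median, 179 with 1.5 and 32 with 2. It was 444 with a pseudocount of 5, 201 with the 50% of each list of lowest p-value, 59 with single-bin peaks only and 332 when peaks had to overlap by 50%; the last 3 alternatives leave fewer regions. At a limit of 2 the share found again in the list left out was 59.1%. Leaving out each replicate in turn gave 738 to 993 low regions. For the other results, only the value of 1 list was dropped from the mean in turn, and the regions were not chosen anew. The share found again was then 73.9 to 85.8%, and the difference for the peaks outside shared regions −1.28 to −0.94. The width difference stayed at 50 bp each time. Without the replicate block, that is with input averaged over the lists, 769 regions were low, of which 582 are among the 682. Unpaired, the difference of the outside peaks had an exact permutation p of 0.1, the smallest possible, and that of the widths 0.6. Alternatives chosen after seeing the data were the definition of ribosomal RNA genes (689), leaving out the block on X (667) and the restrictions on position (8.53 to 11.3% in the first 20%). Low CLIP levels stand near the floor of each list, and no depth is given, so whether places with less input fall below the limit was not detectable.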
